A study of Mus musculus with 12 samples.

Results

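The genes of the tumour necrosis factor (TNF) family were examined in ileal RNA of mice that had or lacked a microbiota and had or had not received tylosin, a macrolide antibiotic, early in life. They were the genes with values whose symbol begins with Tnf or Traf, together with those present among 11 further symbols of the family, of which 9 were present and Cd70 and Tradd were not among the rows used. This gave 35 of the 556 genes with values, namely 13 ligands, 13 receptors, 7 intracellular adaptors and the 2 TNF-induced genes Tnfaip3 and Tnfaip6. RNA of the terminal ileum came from 12 male C57BL/6 mice killed at postnatal day 50, which the labels call week 7, with 3 mice in each of 4 groups. SPF control mice were conventionally colonized specific-pathogen-free mice given autoclaved water without antibiotic. SPF PAT mice received a single pulsed antibiotic treatment, tylosin in autoclaved water for 5 days from postnatal day 5, while they were nursing. GF control mice were germ-free mice given autoclaved water, and GF PAT mice were germ-free mice given the same tylosin course. The labels name no litter for any mouse, so the p-values measure the spread between these mice, some of which may be littermates.

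TNF-family ligands are mostly trimers on the surface of immune and stromal cells, or shed from it, and they bind receptors of the matching family on other cells. Some receptors with a death domain recruit Fadd and can start apoptosis. Many receptors of the family signal through TRAF proteins, which pass the signal to the IκB kinases and so to NF-κB transcription factors. In the gut the family is known for building Peyer's patches and isolated lymphoid follicles through lymphotoxin, for keeping B cells and plasma cells alive through Tnfsf13b (BAFF), and for inflammation through TNF.

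RNA was measured with a NanoString mouse immunology panel, which counts hybridized reporter probes without sequencing. A value is the log2 of a normalized probe count, so levels are compared between mice and not between genes. The total count per mouse was 806043 to 923395 in SPF control mice and 600308 to 681370 in the other mice. Counts of the family genes ranged from 2 to 1883 per mouse with none at 0, and 5 of the genes (Cd40lg, Tnfrsf8, Tnfrsf9, Tnfsf14 and Tnfsf18) averaged fewer than 20 normalized counts and so are the least precise. Of the 8 epithelial marker genes looked for, 6 were measured and none was at 0, and 9 of 9 B cell markers were measured, also with none at 0. The summed level of the B cell markers differed strongly between mice of the same group, from 884 to 6215 in SPF PAT mice and from 1306 to 7214 in SPF control mice, and this is given below beside the genes it touches.

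**Figure D1:**
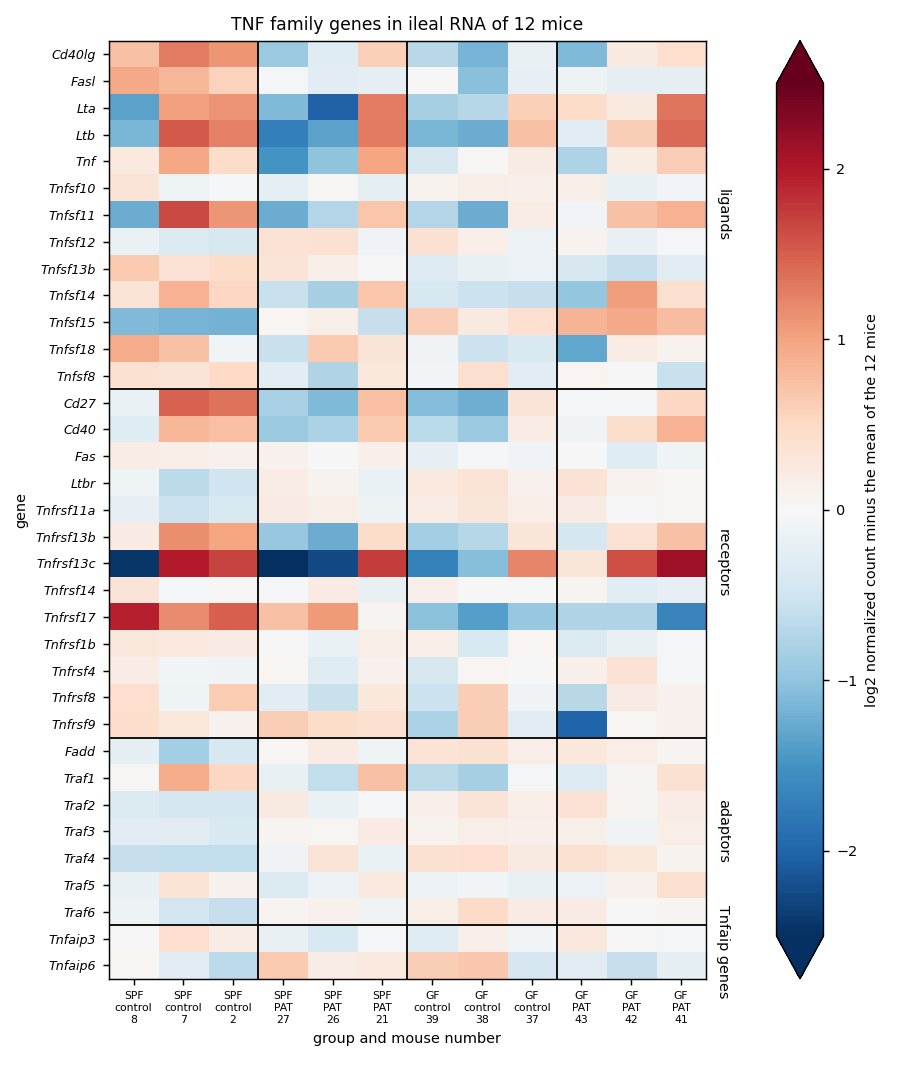
Deviation of each of the 35 TNF family genes (rows, by role) from its mean over the 12 mice (columns, by group and mouse number), in log2 units of normalized count. Tnfsf15 was low and Tnfrsf17 high in the 3 SPF control mice, whereas Tnfrsf13c, Ltb, Lta and Tnfsf11 differed most between mice of the same group.

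SPF control mice were set against GF control mice to ask how the family differed with a microbiota, in the absence of tylosin. With colonization, 4 genes were higher, the plasma cell receptor Tnfrsf17, the T cell ligands Cd40lg and Fasl and the B cell survival factor Tnfsf13b, and 8 were lower, the ligand Tnfsf15, the receptors Ltbr and Tnfrsf11a and the adaptors Fadd, Traf2, Traf3, Traf4 and Traf6. In limma with Benjamini-Hochberg adjustment over the 556 genes, 12 of the 35 family genes (34.3%) passed an adjusted p of 0.05, against 42.1% of all genes. Of them, 4 were higher and 8 lower in SPF control mice, and among all genes 19.4% were higher and 22.7% lower. As a whole the family therefore did not pass the threshold more often than the rest of the panel. The values of the 2 groups did not overlap for 19 family genes (54.3%) and for 52.2% of all genes. Centring each mouse on its median lowered the median difference of all genes by 0.44. It gave 2 family genes higher and 9 lower, beside 57 and 169 of all genes. The median difference of the family was 0.32 beside 0.08 for all genes, and with such centring -0.12 beside -0.36.

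Among the ligands, Tnfsf15 (TL1A), which acts on T cells and innate lymphoid cells through Tnfrsf25, had log2 values of 5.41, 5.35 and 5.33 in SPF control mice 8, 7 and 2. Its values in the GF controls 39, 38 and 37 were 7.13, 6.74 and 6.93. The groups were far apart, with means of 5.36 ± 0.04 and 6.93 ± 0.19 (SD, n = 3 each), and the difference of -1.57 (SE 0.19) was a 2.97-fold lower level in SPF control mice with an adjusted p of 0.000295. Tnfsf13b, the survival factor of mature B cells, was 7.41, 7.11 and 7.22 in SPF control mice and 6.44, 6.57 and 6.61 in GF control mice. It was higher in every SPF control mouse by 0.71 on average (SE 0.13, adjusted p = 0.00297), but this call was lost with each mouse centred on its median and with quantile normalization, where the highest adjusted p was 0.51.

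Fasl, the ligand by which cytotoxic T cells and natural killer cells trigger death through Fas, was 5.26, 5.14 and 4.88 in SPF control mice and 4.32, 3.27 and 4.11 in GF control mice. Every SPF control mouse was above every other mouse of the study for this gene, and the difference from GF control mice was 1.19 (SE 0.24, adjusted p = 0.00364), or 2.28-fold. It too lost its call under median centring and quantile normalization, with an adjusted p of up to 0.146. Cd40lg, the ligand of helper T cells that licenses B cells, was 4.73, 5.29 and 5.10 against 3.32, 2.85 and 3.83, a difference of 1.71 (SE 0.48, adjusted p = 0.0172) without overlap. The call of Cd40lg was lost without SPF control mouse 7, without GF control mouse 38 and under Tukey HSD, the methods' test, with an adjusted p of up to 0.121. The T cell markers moved with both ligands, as 7 of the 11 measured T cell genes were also higher in SPF control mice, led by Cd6 (2.21), Cd8a (2.12) and Cd5 (2.03). Their summed level was 1449 to 2357 in SPF control mice and 471 to 1065 in GF control mice, with none at 0. Among SPF control mice, mouse 8 had the lowest sum and the highest Fasl. The part of T cell content in the levels of Fasl and Cd40lg was not tested, and in bulk tissue fewer cells of a type and less RNA per cell cannot be told apart. An eighth gene of that list, Cd3eap, was lower by 0.73, and despite its name it encodes a subunit of RNA polymerase I and no T cell antigen.

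The other 9 ligands did not pass, with differences from -0.45 for Tnfsf12 to 1.10 for Tnfsf11. Tnf itself, the founding cytokine of the family, was 4.82, 5.54 and 5.03 in SPF control mice and 4.17, 4.59 and 4.78 in GF control mice. These groups did not overlap, yet the 95% interval of the difference of 0.62, from -0.70 to 1.94, included 0 (adjusted p = 0.407).

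Among the receptors, Tnfrsf17 (BCMA), which is carried by plasma cells and supports their survival, had the greatest fold difference of the 12 genes that passed. Its values were 7.48, 6.73 and 7.03 in SPF control mice and 4.52, 4.18 and 4.61 in GF control mice. The SPF control mice lay far above the GF control mice, and the difference was 2.65 (SE 0.33), or 6.27-fold (adjusted p = 0.000336). Of the 5 plasma cell markers looked for, 3 were measured with none at 0. Their summed level overlapped between the groups, at 5821 to 8760 in SPF control and 6170 to 6891 in GF control mice. Most of this sum was Xbp1, at 12.35 to 12.98 in SPF control and 12.54 to 12.69 in GF control mice. The overlap therefore says little about the others. Among the 3 markers, Irf4, a transcription factor of plasma cells and activated lymphocytes, was higher by 2.44 (SE 0.25, adjusted p = 0.00016). Its part in the level of Tnfrsf17 was not tested.

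Ltbr, the lymphotoxin β receptor of stromal and epithelial cells, was 10.51, 9.96 and 10.13 in SPF control mice and 10.88, 10.97 and 10.74 in GF control mice. It was lower in each SPF control mouse, by 0.66 on average (difference -0.66, SE 0.17, adjusted p = 0.0111), and this call was lost under the methods' Tukey HSD (adjusted p = 0.0551). Tnfrsf11a (RANK), the receptor by which the epithelium over follicles responds to Tnfsf11, was 9.97, 9.65 and 9.80 against 10.37, 10.50 and 10.36 and likewise did not overlap. Its difference was -0.60 (SE 0.13, adjusted p = 0.00544). The remaining 10 receptors did not pass, with differences from 0.06 for Tnfrsf14 to 1.55 for Cd27, the costimulatory receptor of lymphocytes. Fas, the death receptor for Fasl, was 8.36, 8.35 and 8.28 against 7.97, 8.15 and 8.08, a difference of 0.26 (adjusted p = 0.0795) in groups that did not overlap.

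The adaptors were the role with most calls, 5 of 7 (71.4%), all lower in SPF control mice. Among all genes 42.1% passed and 22.7% were lower. Traf4, an adaptor found mainly in epithelia, was 7.18, 7.14 and 7.16 in SPF control mice and 8.15, 8.19 and 7.99 in GF control mice. The SPF control values were nearly equal, and the difference was -0.95 (SE 0.15, adjusted p = 0.000932), or 1.93-fold lower. Fadd, which couples death receptors to caspase-8, was 7.67, 7.07 and 7.51 against 8.26, 8.30 and 8.09 (difference -0.80, SE 0.16, adjusted p = 0.00387). Traf6, which serves CD40 and the interleukin-1 and Toll-like receptors as well, was 9.30, 8.95 and 8.84 against 9.56, 9.90 and 9.62 (difference -0.66, SE 0.15, adjusted p = 0.00586). All the SPF control mice were below all the GF control mice for each of these genes. Traf2, which joins TNF receptors to NF-κB signalling, was 7.77, 7.67 and 7.67 against 8.24, 8.44 and 8.29 (difference -0.62, SE 0.13, adjusted p = 0.00513). Traf3, which restrains the alternative NF-κB pathway, was 8.03, 8.04 and 7.93 against 8.41, 8.48 and 8.44 (difference -0.44, SE 0.11, adjusted p = 0.00905). Both again showed no overlap, and the calls of the 5 adaptors, of Tnfrsf11a, Tnfrsf17 and Tnfsf15 held under all 21 alternatives. Of the 6 measured epithelial markers, the brush border peptidases Mme (-2.31) and Dpp4 (-1.23) were lower in SPF control mice. Defb1 (0.90) and Pigr (0.77) were higher. The summed level of the 6 markers overlapped, at 118996 to 139186 in SPF control and 111954 to 125159 in GF control mice. Most of this sum was Itln1 and Pigr, so it says little about the other markers. Traf1 and Traf5, adaptors that are most abundant in lymphocytes, had positive differences of 0.999 and 0.22 and did not pass.

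Tnfaip3 (A20), the feedback inhibitor of NF-κB signalling, was 9.24, 9.66 and 9.43 in SPF control mice and 8.94, 9.38 and 9.18 in GF control mice, and the groups overlapped (difference 0.28, adjusted p = 0.193). Tnfaip6, a matrix protein induced by TNF, differed by -0.59 (adjusted p = 0.138).

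**Figure D2:**
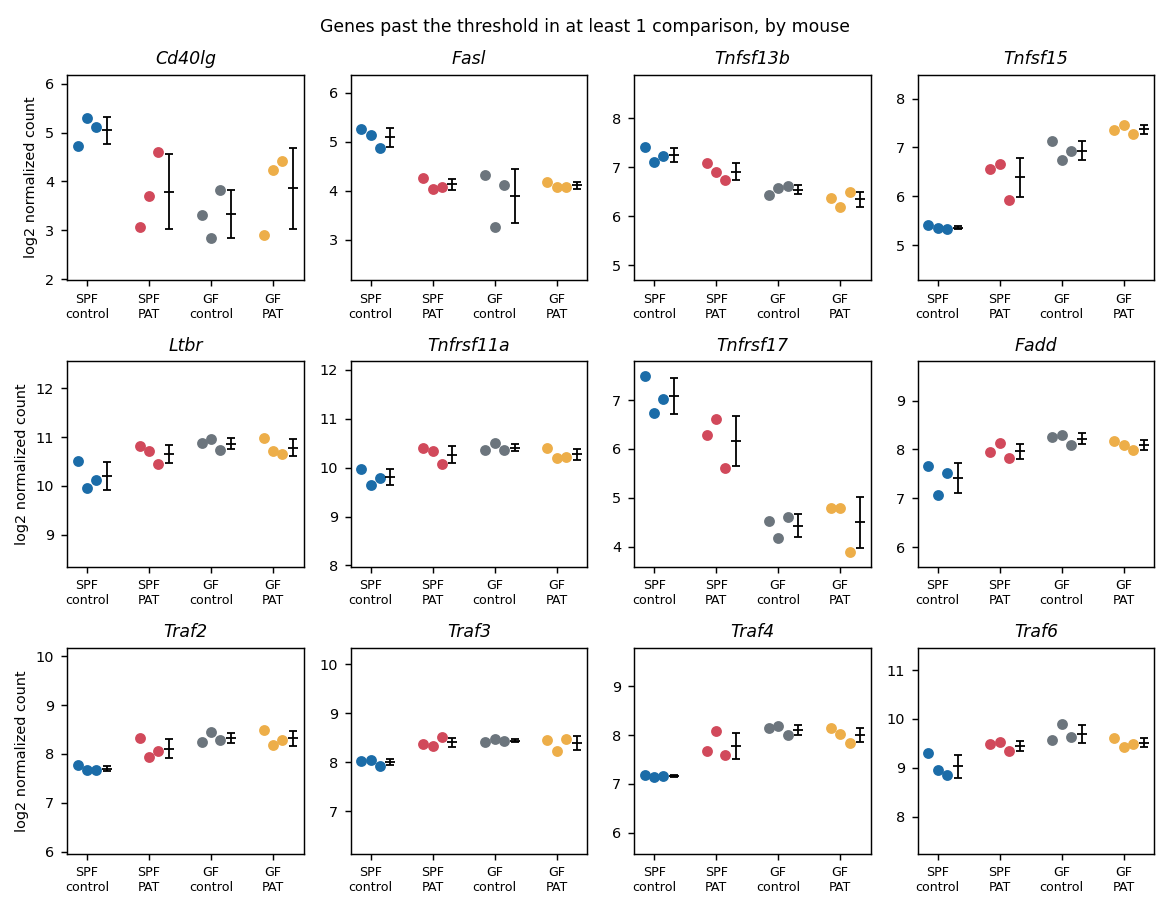
Log2 normalized count of the 12 TNF family genes that passed the threshold in at least 1 comparison, with a point per mouse and the mean ± SD of the 3 mice to the right of each group, on axes of equal span. The 3 SPF control mice lie below both germ-free groups for Tnfsf15, Ltbr, Tnfrsf11a and the 5 adaptors, and above them for Fasl, Tnfsf13b, Tnfrsf17 and Cd40lg, and the SPF PAT means lie between for most of them.

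SPF PAT mice were set against SPF control mice to ask what differed weeks after tylosin in colonized mice. Tnfsf15, Tnfrsf11a and the adaptors Fadd, Traf2, Traf3 and Traf4 were higher in SPF PAT mice, and Fasl was lower. In limma 7 of the 35 family genes passed, against 26.3% of all genes, and 6 of them were higher, where 14.0% of all genes were higher and 12.2% lower. The 7 genes were among the 12 of the previous comparison and each had the opposite sign there, and the share of all genes that did so was not counted. Both comparisons use the same SPF control mice, so an unusual value in that group moves both at once. The median difference of the family was -0.34 beside -0.02 for all genes, and with each mouse centred on its median, which raised the median of all genes by 0.36, it was 0.02 beside 0.34. That centring gave 4 family genes higher and none lower (76 and 30 of all genes) and quantile normalization 6 and none (90 and 49). Scaling to the total count gave 9 higher and 3 lower (135 and 57 of all genes).

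Tnfsf15 was 6.57, 6.67 and 5.93 in SPF PAT mice 27, 26 and 21, all above the SPF control values, with a mean of 6.39 ± 0.40 (SD, n = 3). Its difference of 1.03 (SE 0.19, adjusted p = 0.00513) was a 2.04-fold rise, and of the 7 calls only that of Tnfsf15 held under all 21 alternatives. Mouse 21 was the lowest of the 3 for this gene. Fasl was 4.26, 4.05 and 4.08 in SPF PAT mice, every value under the lowest SPF control mouse, a difference of -0.96 (SE 0.24, adjusted p = 0.0182). Its call was lost under 5 alternatives, median centring and quantile normalization among them, with an adjusted p of up to 0.434. Of the 11 measured T cell genes, 6 were also lower, led by Cd5 (-2.43), Cd6 (-2.26) and Cd8a (-1.79). Their summed level of 503 to 1460 in SPF PAT mice overlapped with the 1449 to 2357 of SPF control mice. SPF PAT mouse 21 (sum 1460) had Fasl at 4.08 and SPF control mouse 8 (sum 1449) at 5.26. The markers behind these sums differed between the same mice, with Cd8a at 6.78 and 7.87 and Cd2 at 8.14 and 6.61. The part of T cell content in the level of Fasl was not tested. Cd40lg was 3.07, 3.70 and 4.61 in SPF PAT mice, a difference of -1.25 without overlap that did not pass (adjusted p = 0.0779).

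Of the adaptors, Traf4 was 7.67, 8.08 and 7.59 in SPF PAT mice, a difference of 0.62 (SE 0.15, adjusted p = 0.0142). Fadd was 7.96, 8.12 and 7.82 (difference 0.55, SE 0.16, adjusted p = 0.0358), with mouse 21 nearest to the SPF control mice. Traf3 was 8.38, 8.33 and 8.52 (difference 0.41, SE 0.11, adjusted p = 0.0217), with mouse 21 the highest. For each of these adaptors all SPF PAT mice exceeded all SPF control mice. Of the 6 measured epithelial markers, Mme at 1.14 (adjusted p = 0.00543) and Dpp4 at 0.70 (adjusted p = 0.0112) were also higher and Defb1 at -1.10 (adjusted p = 0.024) lower. The summed level of the 6 markers, again mostly Itln1 and Pigr, was 108627 to 180739 in SPF PAT mice with none at 0. Its part in the adaptor levels was not tested. Traf2 was 8.34, 7.94 and 8.06 (difference 0.41, SE 0.13, adjusted p = 0.047), and its call was lost under 13 of 21 alternatives. The call of Fadd was lost under 8, that of Traf3 under 4 and that of Traf4 under 3. Under the methods' Tukey HSD only Traf3 of these adaptors kept its call. Traf6 was 9.49, 9.52 and 9.34, a difference of 0.42 that did not pass (adjusted p = 0.0599). Tnfrsf11a was 10.39, 10.34 and 10.07, above every SPF control mouse (difference 0.46, SE 0.13, adjusted p = 0.0312). Its call was lost under 7 of 21 alternatives, Tukey HSD among them. Ltbr was 10.82, 10.71 and 10.45 and overlapped with SPF control mouse 8 (difference 0.46, adjusted p = 0.0681).

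Tnfrsf17 was 6.29, 6.61 and 5.61 in SPF PAT mice, below each SPF control mouse, but the difference of -0.91 (SE 0.33) did not pass (adjusted p = 0.0631). Of the 3 measured plasma cell markers, 2 were also lower, Irf4 at -1.22 (adjusted p = 0.00854) and Prdm1 at -0.72 (adjusted p = 0.0316). Their part in the level of Tnfrsf17 was not tested. Tnfsf13b was 7.08, 6.90 and 6.74, also below each SPF control mouse (difference -0.34, adjusted p = 0.0883), and Tnfaip3 was 9.06, 8.86 and 9.19 (difference -0.41, adjusted p = 0.0908). Fas was 8.29, 8.18 and 8.30 and differed by -0.07. The 28 genes that did not pass had differences from -1.65 for Tnfrsf13c to 0.66 for Tnfaip6. The number of calls depended on single mice. Without SPF PAT mouse 21, whose B cell markers were about as high as in SPF control mice 7 and 2, 16 family genes passed, 9 higher and 7 lower, and 232 of all 556 genes. The count was 2 without SPF control mouse 7 (75 of all genes) and 2 without mouse 2 (64 of all genes). It was 3 without SPF PAT mouse 27 (73 of all genes) and 4 without mouse 26 (89 of all genes), so the calls of the whole panel moved with those of the family.

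**Figure D3:**
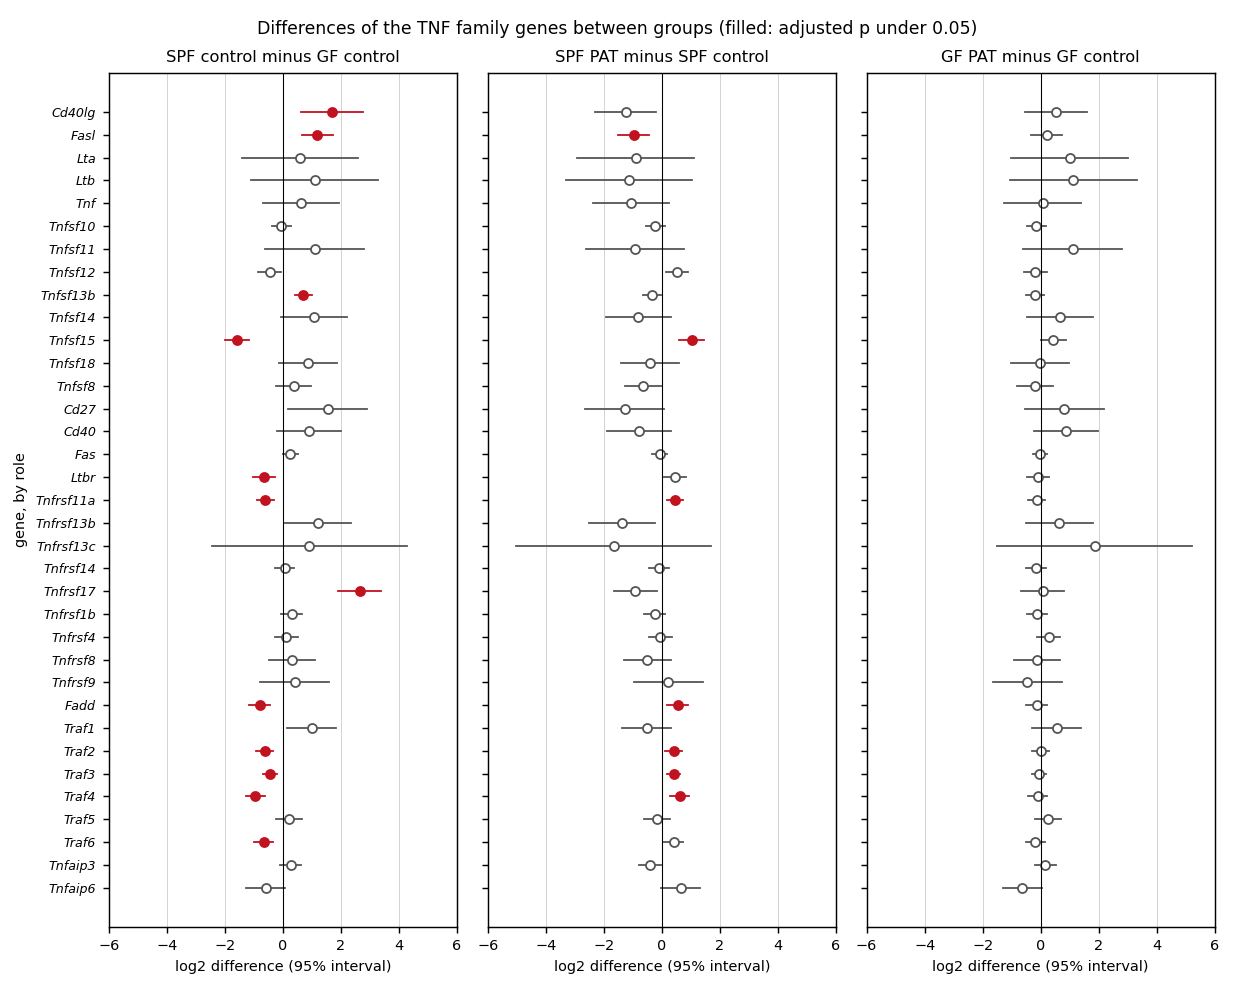
Log2 difference of each of the 35 TNF family genes with its 95% interval from limma, of SPF control over GF control mice (left), SPF PAT over SPF control mice (middle) and GF PAT over GF control mice (right), with filled points at an adjusted p under 0.05. There are 12 filled points in the first panel, 7 of opposite sign in the second and none in the third, and the widest intervals belong to Tnfrsf13c, Ltb, Lta and Tnfsf11.

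Without a microbiota, tylosin was followed by no call. In GF PAT against GF control mice, limma passed 0 of the 35 family genes and 0 of all genes (0%), with 0.693 as the smallest adjusted p in the family, and at an unadjusted p under 0.05 there was 1 family gene among 28 of all genes. The methods' Tukey HSD and voom on the recovered counts also passed 0 family genes. The gene under the unadjusted threshold was Tnfsf15, at 7.37, 7.46 and 7.28 in GF PAT mice 43, 42 and 41. Each of these values was above every GF control mouse, and the difference of 0.44 had a 95% interval from 0.02 to 0.85. Such lack of overlap was found for 1 family gene (2.86%) and for 12.1% of all genes. Traf4 was 8.14, 8.02 and 7.85, a difference of -0.11 with an interval from -0.43 to 0.22. Fasl was 4.19, 4.08 and 4.07 and Tnfrsf17 was 4.80, 4.80 and 3.90, and both overlapped with GF control mice. Cd40lg was 2.91, 4.24 and 4.42, Tnfsf13b was 6.37, 6.18 and 6.48, and Fas was 8.18, 7.87 and 8.08, all within reach of the GF control mice. Ltbr was 10.98, 10.71 and 10.66, Tnfrsf11a was 10.39, 10.20 and 10.22, and Tnfaip3 was 9.52, 9.25 and 9.22. Among the remaining adaptors, Fadd was 8.18, 8.08 and 7.99, Traf2 was 8.48, 8.18 and 8.29, Traf3 was 8.46, 8.23 and 8.47, and Traf6 was 9.62, 9.43 and 9.49. Each of these genes overlapped with GF control mice. The differences of the 35 genes ran from -0.64 for Tnfaip6 to 1.85 for Tnfrsf13c, and for the latter the interval from -1.51 to 5.22 allows a large change in either direction.

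Whether tylosin acted alike with and without a microbiota was tested as an interaction, the SPF PAT effect minus the GF PAT effect. In limma 2 of the 35 family genes (5.71%) passed, against 17.1% of all genes. They were Traf4, at 0.73 (SE 0.21, adjusted p = 0.0396), and Fasl, at -1.17 (SE 0.34, adjusted p = 0.0417). Tnfrsf11a, at 0.59 (adjusted p = 0.0535), Traf3, at 0.46 (adjusted p = 0.0611), and Tnfaip6, at 1.30 (adjusted p = 0.0611), were close to the threshold. Tnfsf15 was not shown to differ between the effects (0.59, SE 0.26, adjusted p = 0.132). The count was 15 without SPF PAT mouse 21, 8 without SPF control mouse 8, 5 without GF control mouse 37 and 3 without GF PAT mouse 43, where 217, 140, 126 and 95 of all genes passed. It was 1 without GF control mouse 39 or 38, where 58 and 47 of all genes passed. It was 0 without GF PAT mouse 42 or 41, SPF control mouse 7 or 2, or SPF PAT mouse 27 or 26, where 35 to 51 of all genes passed.

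SPF PAT mice were also compared with each germ-free group. Against GF control mice 1 family gene passed (2.86%), where 2.16% of all genes did, and this was Tnfrsf17, still higher by 1.74 (SE 0.33, adjusted p = 0.0236), or 3.33-fold. Of the 3 measured plasma cell markers, Irf4 was higher here too, by 1.22 (adjusted p = 0.0395), and its part was not tested. Summed levels, again mostly Xbp1, were 6009 to 7877 in SPF PAT and 6170 to 6891 in GF control mice. Against GF PAT mice 2 passed (5.71%), where 1.44% of all genes did. Tnfrsf17 was higher by 1.67 (SE 0.33, adjusted p = 0.0352) and Tnfsf15 lower at -0.98 (SE 0.19, adjusted p = 0.0352), neither with overlap. Overlap was absent for 17.1% of the family genes and 13.7% of all genes here. Both comparisons share the SPF PAT mice, and several single mice, when left out, ended these calls in each. The first count was 0 without any of the 3 GF control mice or without SPF PAT mouse 27 or 26, where 1 to 5 of all genes passed. The second stayed at 2 only without SPF PAT mouse 21 (11 of all genes) and was 1 without GF control mouse 39 (8 of all genes). It was 0 without any other mouse, where 1 to 5 of all genes passed. For the order of the groups, the mean of Tnfrsf17 was highest in SPF control (7.08 ± 0.38), then in SPF PAT (6.17 ± 0.51) and lowest in the germ-free groups (4.43 ± 0.23 and 4.50 ± 0.52, SD, n = 3), where neighbouring SPF groups did not pass the test and the germ-free groups overlapped. In limma's F-test over the 4 groups, 11 family genes passed (31.4%), where 33.1% of all genes did. They were the 12 named above without Cd40lg (adjusted p = 0.0742). The count was 4 without SPF control mouse 7 (84 of all genes), 5 without mouse 2 (90) and 7 without GF control mouse 38 (138).

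Genes of lymphoid follicles and B cells varied widely between mice of the same group. The SD between mice, pooled over the groups, was above 1 log2 unit for 4 family genes (11.4%), Tnfrsf13c, Ltb, Lta and Tnfsf11, and for 7.91% of all genes, while the median SD was 0.302 in the family and 0.301 over all genes. Tnfrsf13c, the BAFF receptor of B cells, was 2.06, 6.47 and 6.19 in SPF control mice 8, 7 and 2, and 1.26, 2.24 and 6.25 in SPF PAT mice 27, 26 and 21. It was 2.80, 3.44 and 5.72 in GF control mice 39, 38 and 37, and 4.80, 6.10 and 6.63 in GF PAT mice 43, 42 and 41. Every group held both low and high mice except GF PAT, and no comparison of Tnfrsf13c passed.

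Ltb, the membrane anchor of the lymphotoxin trimer that organizes follicles through Ltbr, was 6.35, 9.02 and 8.76 in SPF control and 5.79, 6.15 and 8.79 in SPF PAT mice. In the germ-free groups it was 6.35, 6.25 and 8.23 in control and 7.20, 8.10 and 8.92 in PAT mice. The same mice were high as for Tnfrsf13c. Lta, the partner of Ltb, was 3.73, 6.10 and 6.21 in SPF control, 3.96, 3.05 and 6.35 in SPF PAT, 4.24, 4.36 and 5.67 in GF control and 5.53, 5.31 and 6.41 in GF PAT mice. Lta, Tnf and Ltb lie close together on chromosome 17. Tnf followed the order of mice of Ltb less steeply in the PAT groups, at 3.07, 3.56 and 5.56 in SPF PAT and 3.80, 4.75 and 5.18 in GF PAT mice. Its order was not that of Lta there. In GF control mice it was 4.17, 4.59 and 4.78, which was not the order of Ltb. Tnfsf11 (RANKL), the stromal and T cell ligand for Tnfrsf11a, ranged from 3.72 in SPF PAT mouse 27 to 6.62 in SPF control mouse 7.

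Tnfrsf13b (TACI), a receptor of B cells for BAFF and APRIL, was 5.59, 6.54 and 6.36 in SPF control, 4.43, 4.15 and 5.84 in SPF PAT, 4.52, 4.66 and 5.70 in GF control and 4.96, 5.75 and 6.11 in GF PAT mice. Cd40, the receptor for Cd40lg on B cells and dendritic cells, was 6.26, 7.39 and 7.30, then 5.62, 5.76 and 7.22, then 5.88, 5.63 and 6.74, then 6.46, 6.99 and 7.42 in the same order of groups and mice. In both, SPF control mouse 8 was the low mouse of its group and SPF PAT mouse 21 the high one. For Tnfrsf13b the SPF PAT difference was -1.36 (adjusted p = 0.0738) and for Cd40 it was -0.78 (adjusted p = 0.25).

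The B cell markers were highest in the same mice. Their summed normalized count was 1306, 7214 and 6361 in SPF control mice 8, 7 and 2, 886, 884 and 6215 in SPF PAT mice, 923, 1158 and 3834 in GF control mice and 2131, 3765 and 6168 in GF PAT mice. The follicle markers (6 of 8 measured, none at 0) ran from 352 to 2561 in SPF control and from 328 to 1829 in SPF PAT mice, and from 378 to 1118 and 699 to 1742 in the germ-free groups. With such spread few markers passed in SPF control against GF control mice, Blnk at 0.42 of the B cell list and Bcl6 at -0.65 of the follicle list, and Blnk alone of both lists passed in SPF PAT against SPF control mice, at -0.46. In all groups the mouse with the highest B cell sum, namely 7, 21, 37 and 41, was also the highest for 9 family genes (25.7%), Cd27, Cd40, Cd40lg, Ltb, Tnf, Tnfrsf13b, Tnfrsf13c, Tnfsf11 and Traf1, and for 18.3% of all genes. That mouse was the lowest of its group for 3 family genes (8.57%), Fadd, Ltbr and Traf4, and for 7.73% of all genes. The part of lymphoid tissue content in these levels was not tested. Tnfrsf17 was lowest in the mouse with the highest B cell sum in SPF control (7), SPF PAT (21) and GF PAT (41) mice and highest in that mouse in GF control mice (37). Tnfsf15 was lowest in mice 21 and 41 of the PAT groups, and among SPF control mice it was nearly level, at 5.41 in mouse 8 and 5.35 and 5.33 in mice 7 and 2.

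**Figure D4:**
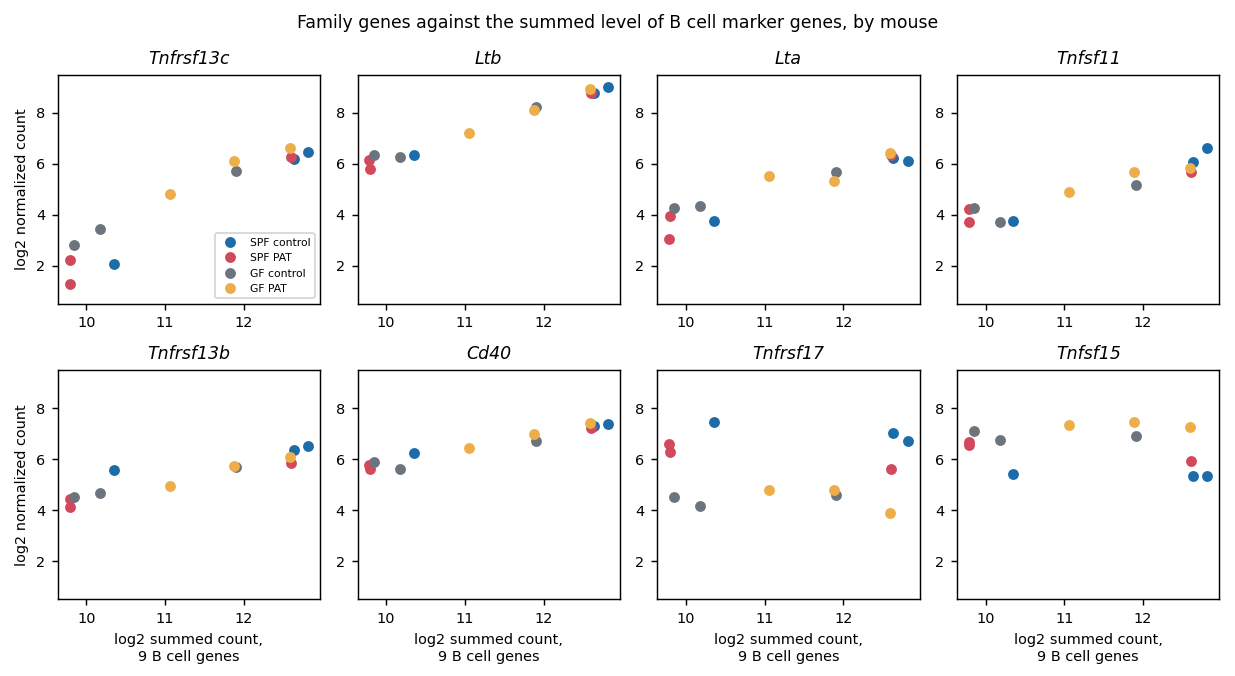
Log2 normalized count of 8 TNF family genes against the log2 of the summed normalized count of 9 B cell marker genes, with a point per mouse in the colour of its group. Tnfrsf13c, Ltb, Lta, Tnfsf11, Tnfrsf13b and Cd40 were high in the mice with a high B cell sum, whereas for Tnfrsf17 and Tnfsf15 SPF control and germ-free mice stood apart at low and at high sums.

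The genes downstream of the adaptors were examined as a list of 27 signalling genes, of which 16 were measured. In SPF control against GF control mice 9 of the 16 were lower and 1 higher, where 22.7% of all genes were lower and 19.4% higher. The median difference was -0.46, beside 0.08 for all genes. The largest changes were Nfkbiz, an inducible nuclear IκB protein, at 1.03 (adjusted p = 0.000932), Chuk, a catalytic subunit of the IκB kinase, at -0.84 (adjusted p = 0.00363), and Relb, the NF-κB subunit of the alternative pathway, at -0.74 (adjusted p = 0.00289). In SPF PAT against SPF control mice 6 were higher and 1 lower, where 14.0% of all genes were higher and 12.2% lower. They included Nfkbiz at -0.83 (adjusted p = 0.00545), Relb at 0.81 (adjusted p = 0.00456) and Rela, the main NF-κB activator, at 0.52 (adjusted p = 0.0217). No gene of the list passed in GF PAT against GF control mice, where 0% of all genes did. For the difference between the tylosin effects 3 of the 16 passed, where 17.1% of all genes did. They were Relb at 0.94, Ikbkap at 0.69 and Nfkb1 at 0.55. Ikbkap, which was also among the calls of the list in the SPF comparisons above, is despite its name a subunit of the Elongator complex. Of 12 targets of TNF-family signals in mucosa 10 were measured. In SPF control against GF control mice 2 of the 10 were higher, near the 19.4% of all genes, and 0 lower, beside 22.7%. They were the chemokines Ccl20, which draws cells to follicles, at 2.25 (adjusted p = 0.00454), and Ccl2, which draws monocytes, at 1.29 (adjusted p = 0.00826). In SPF PAT against SPF control mice 1 of the 10 passed, Ccl20, lower at -1.51 (adjusted p = 0.0417), where 12.2% of all genes were lower.

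Promoters of the family genes, from 250 bases before to 50 bases after each RefSeq gene start in GRCm38.p6, were searched on both strands for the classical NF-κB consensus, since this is the factor to which the adaptors signal. The table held 35 promoters of 32 of the family genes. The consensus was found in 5 of these promoters (14.3%), those of Ltb, Tnfaip3, Tnfrsf8, Tnfrsf9 and Traf3, and in 8.46% of the 32851 promoters of all genes. The stretches of 3 of them are shown, because the genes behaved differently in the data: Traf3 was lower in SPF control mice, Ltb varied between mice of a group, and Tnfaip3 passed in no comparison. Capitals mark the match, and each stretch is written on the strand of its gene and ends at or before the start.
Traf3, chr12:111166320-111166369, plus strand, match from -10 to -1: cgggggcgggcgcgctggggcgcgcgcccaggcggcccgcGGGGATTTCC
Tnfaip3, chr10:19015411-19015462, minus strand, match from -12 to -3: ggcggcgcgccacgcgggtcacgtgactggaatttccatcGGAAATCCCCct
Ltb, chr17:35194380-35194469, plus strand, match from -87 to -78: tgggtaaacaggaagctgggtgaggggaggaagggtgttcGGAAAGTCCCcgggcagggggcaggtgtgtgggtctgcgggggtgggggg
The matches of Tnfaip3 and Ltb lie on the strand opposite to the gene. The match of Tnfaip3 shown here reads GGGGATTTCC on that strand, which is the sequence of the match in Traf3, although the values of these genes moved differently. A match describes the sequence only.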

How the data were processed

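Ileal RNA of 12 mice was counted on NanoString's nCounter GX panel of mouse immunology genes. The authors normalized the counts with DESeq2 and deposited log2 values, 1 per gene and mouse, for 556 genes, and 28 control and reference entries hold no value. The labels name TRIzol and RNeasy for extraction and the study's methods the miRNAeasy kit. Counts were recovered from the log2 values as whole numbers within 0.01 with 1 size factor per mouse, and totals were 600308 to 923395 per mouse. A count of 0 is deposited as 0 on the log2 scale. Groups came from the labels, and mouse numbers are unique, so nothing pairs the mice.

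All log2 values were tested unfiltered with limma 3.58.1 in R 4.3.3 (lmFit and eBayes, 1 mean per group, 12 mice in 1 model), adjusted by Benjamini-Hochberg over 556 genes in each comparison, with a threshold of 0.05. The fit was run on simulated counts with the same relative spread for every gene and independent mice. In the data the pooled SD ran from 0.09 (Traf3) to 2.02 (Tnfrsf13c) in the family, so that run does not give the error rates here. The family genes, the signalling, target and marker lists and the tests were chosen with earlier results of these data known. Values per mouse are given for genes past the threshold and for 13 family genes chosen by role. From the lists, up to 3 genes past the threshold are named per comparison, and Cd3eap and Pigr were added after their values were seen. Xbp1 and Itln1 are named because they make up much of a summed level. Promoters came from RefSeq tables of GRCm38.p6, and all 35 symbols matched.

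Alternatives were the methods' analysis of variance with Tukey HSD, an intensity trend, voom on the recovered counts, only the groups compared, a mean normalized count of at least 20, median centring, quantile normalization, scaling to the total count, a pseudocount of 1, and a fit without each mouse in turn.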

Additional observations from a re-analysis of the deposited data

Results flagged for a closer look

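Traf4 and Fasl were picked out because the tylosin effect differed between SPF and GF mice in a direct test. For Traf4 the SPF PAT effect minus the GF PAT effect was 0.73 in log2 units, from an effect of 0.62 in SPF and of -0.11 in GF mice. Of the 6 measured epithelial markers, 2 passed in this test, Mme at 1.31 (adjusted p = 0.0208) and Dpp4 at 0.82 (adjusted p = 0.0322), both higher. The others did not pass in it, among them Defb1, which was lower in SPF PAT than in SPF control mice (-1.10). The part of these markers in the level of Traf4 was not tested. For Fasl it was -1.17, from -0.96 in SPF and 0.21 in GF mice. The Traf4 call was lost when any of 8 single mice was left out and the Fasl call under 12 of 20 alternatives, median centring and quantile normalization among them, with an adjusted p of up to 0.0981 for Traf4 and 0.626 for Fasl. Of the 11 measured T cell markers, 3 (Cd8a, Cd3d and Zap70) were also lower in this test and Cd3eap was higher, and their part was not tested. With 3 mice per group, single outlying mice within a group were not tested.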

How the results depend on the processing

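No result changed its sign past the threshold. Over the 210 gene differences, 4345 alternative values were computed, of which 4143 stayed on the same side of the threshold, 108 lost and 94 gained a call. For SPF control against GF control mice the count of 12 family genes was 10 to 13 under the alternatives that kept all mice (142 to 252 of all genes). It was 11 to 17 with a mouse left out (169 to 259 of all genes). For SPF PAT against SPF control mice the count of 7 became 2 under Tukey HSD (55 of all genes) and 2 with only the groups compared (76). It became 4 with median centring (106) and 12 with scaling to the total count (192). With a mouse left out it was 2 to 16 (64 to 232 of all genes). The count of 2 for the difference between the effects became 4 with an intensity trend (125 of all genes) and 5 with voom (128). It became 7 with a mean normalized count of at least 20 (133) and 7 with scaling to the total count (134). With a mouse left out it was 0 to 15 (35 to 217 of all genes). For SPF PAT against GF control mice the count of 1 became 0 under Tukey HSD, voom, only the groups compared, median centring and quantile normalization (0 to 9 of all genes). It was 0 to 1 with a mouse left out (1 to 11 of all genes). For SPF PAT against GF PAT mice the count of 2 became 0 under Tukey HSD, only the groups compared, median centring and quantile normalization (0 to 7 of all genes). It was 1 with voom (8 of all genes) and 0 to 2 with a mouse left out (1 to 11 of all genes). The F-test count of 11 became 7 with median centring (128 of all genes) and 7 with quantile normalization (146). It was 4 to 15 with a mouse left out (84 to 217 of all genes). The count for GF PAT against GF control mice was 0 throughout, where at most 1 of all genes passed. The causes were not tested. No paired analysis was possible because each mouse number belongs to 1 mouse. Counting error is greatest for the 5 family genes with a mean normalized count under 20.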
